A study of Mus musculus with 8 samples.

Results

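Voltage-gated potassium channels were examined through 35 genes that encode their pore-forming subunits and the related silent subunits. The genes were chosen by name and not by a measured value, though earlier results of these data were known. All 35 were found among the 21627 protein-coding genes of chromosomes 1 to 19 and X in the RefSeq table of GRCm38.p6, the assembly also called mm10. They comprised 8 Kv1 genes (Kcna1 to Kcna7 and Kcna10), 1 Kv2 gene (Kcnb2), 3 Kv3 genes (Kcnc1, Kcnc2, Kcnc4), 2 Kv4 genes (Kcnd2, Kcnd3), 10 silent subunit genes (Kcnf1, Kcng1 to Kcng4, Kcns1 to Kcns3, Kcnv1, Kcnv2), 8 Kcnh genes (Kcnh1 to Kcnh8) and 3 Kv7 genes (Kcnq1, Kcnq3, Kcnq5). A gene's window was the gene and 5 kb on each side, and a peak was counted when its summit lay in the window. The 35 windows summed to 4.94 Mb.

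The study profiled open chromatin by ATAC-seq, in which a transposase cuts accessible DNA, in amygdala neurons of male C57BL/6J mice. An AAV carrying a guide against Rosa26 (sgRosa, a control locus) or against Nr2f2 (sgNr2f2), which encodes a nuclear receptor that binds DNA, had been delivered to the amygdala. There were 4 libraries of each guide. After more than 2 weeks of expression, every mouse of both groups went through tube restraint for 7 days, fear conditioning for 1 day and extinction for 3 days, so no library came from an unstressed animal. The series describes the knockdown as neuron-targeting, and neurons were purified on a magnetic column. The promoter that drives the construct, the effector used with the guide, the age of the animals and the share of neurons transduced are not given in the sources used here. Because each library holds many cells, fewer cells with a site open and a site less open in each cell cannot be told apart.

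Pore-forming Kv subunits assemble in fours around a potassium-selective pore that opens on depolarisation, and the outward current ends the action potential and sets how soon the next can follow. Kv1 channels act mainly on axons and near the axon's initial segment, Kv2 channels on the soma and proximal dendrites, and Kv3 channels allow fast spiking. Kv4 channels carry the transient A-type current of dendrites. Silent subunits form no channel alone and modify Kv2 channels, Kcnh genes encode the EAG, ERG and ELK channels, and neuronal Kv7 channels carry the M current that muscarinic receptors suppress.

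Each library was represented by its own list of peaks. The lists held 60880 to 143405 peaks in the sgRosa group and 53864 to 103939 in the sgNr2f2 group, and the number of reads behind them is unknown. Values below come from the strongest 53864 peaks of each list by the peak caller's −log10 p, the length of the shortest list, unless the full lists are named. Only 4.81% to 18.6% of the peaks in a full list had a q, the p adjusted for multiple testing, under 0.05. Library sgRosa 4 had the longest list. The peak caller's fold and p are the authors' values. The window of Nr2f2 itself held 0, 0, 1 and 1 peaks in the sgRosa libraries and 0, 0, 0 and 1 in the sgNr2f2 libraries, which does not check the knockdown, since a guide need not change whether a peak is called. Gene ends could not check the neuron label: a peak lay less than 1 kb from an end in any library at 6 of 11 neuron marker genes. The same held at 2 of 5 marker genes for astrocytes, 2 of 5 for oligodendrocytes, 3 of 5 for microglia and 2 of 4 for vascular cells. The neuron markers Snap25, Slc17a6, Slc17a7, Slc32a1 and Gad2 had no end peak.

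Promoter windows of 300 bases, 250 before and 50 after a RefSeq transcription start, were available for 25 members, as 30 windows. In the full lists, peaks overlapped 4 of these window observations: 3 of the 4 Kcnc2 windows, by a single peak in sgRosa 3, and the Kcna5 window in sgNr2f2 1. In each library 1.75% to 3.59% of all promoter windows were overlapped. The Kcnc2 window is printed first because a peak's summit lay inside it, and the Kcna5 window next because a peak reached into its 3′ part. Capitals in these 2 mark the bases inside the peak, 179 and 35 of them.
Kcnc2, chr10:112271023-112271322, plus strand: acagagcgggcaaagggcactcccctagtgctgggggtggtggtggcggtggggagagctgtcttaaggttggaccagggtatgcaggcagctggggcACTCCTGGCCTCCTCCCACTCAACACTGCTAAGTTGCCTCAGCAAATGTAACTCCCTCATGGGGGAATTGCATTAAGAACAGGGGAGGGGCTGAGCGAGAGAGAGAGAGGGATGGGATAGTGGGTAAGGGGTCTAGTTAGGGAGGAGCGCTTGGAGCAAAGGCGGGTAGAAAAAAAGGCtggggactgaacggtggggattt
Kcna5, chr6:126535506-126535805, minus strand: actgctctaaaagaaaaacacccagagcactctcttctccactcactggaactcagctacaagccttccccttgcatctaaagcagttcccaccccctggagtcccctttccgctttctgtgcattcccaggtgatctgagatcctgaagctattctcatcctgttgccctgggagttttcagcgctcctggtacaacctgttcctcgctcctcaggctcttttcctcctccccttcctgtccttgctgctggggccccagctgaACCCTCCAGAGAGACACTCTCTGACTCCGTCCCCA
The Kcnc2 peak ran from 112271121 to 112271299, with a fold of 2.27 and a −log10 p of 2.79. The Kcna5 peak ran from 126535364 to 126535540, with a fold of 2.56 and a −log10 p of 3.48. Neither had a q under 0.05, and neither was seen in a second library at that promoter.

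Nuclear receptors of the Nr2f family bind repeats of the hexamer AGGTCA. That hexamer, searched on both strands, occurred in 3 of 30 member windows (10%) and in 5340 of 32851 windows of all genes (16.3%). A direct repeat of the hexamer with any 1 base between the copies, searched likewise, occurred in no member window and in 13 of all windows (0.0396%). The 3 member windows with the hexamer are printed because they are the only ones that hold it. Capitals mark AGGTCA or its reverse complement TGACCT. Kcnf1 holds both, well apart and not as a repeat, while Kcnh1 and Kcna10 hold TGACCT only. These 3 and Kcna5 were chosen after their values were seen.
Kcnf1, chr12:17176839-17177138, minus strand: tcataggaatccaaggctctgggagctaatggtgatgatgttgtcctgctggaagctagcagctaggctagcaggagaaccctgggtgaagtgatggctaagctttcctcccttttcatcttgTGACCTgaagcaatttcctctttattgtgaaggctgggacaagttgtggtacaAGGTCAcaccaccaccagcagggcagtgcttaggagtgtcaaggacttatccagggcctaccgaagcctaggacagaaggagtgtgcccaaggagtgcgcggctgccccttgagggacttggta
Kcnh1, chr1:192190527-192190826, plus strand: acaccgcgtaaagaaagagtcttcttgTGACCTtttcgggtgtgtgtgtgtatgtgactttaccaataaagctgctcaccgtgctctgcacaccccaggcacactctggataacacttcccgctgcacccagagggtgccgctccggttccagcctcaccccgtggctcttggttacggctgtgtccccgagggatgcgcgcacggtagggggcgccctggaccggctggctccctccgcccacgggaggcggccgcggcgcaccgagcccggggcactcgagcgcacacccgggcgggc
Kcna10, chr3:107182893-107183192, plus strand: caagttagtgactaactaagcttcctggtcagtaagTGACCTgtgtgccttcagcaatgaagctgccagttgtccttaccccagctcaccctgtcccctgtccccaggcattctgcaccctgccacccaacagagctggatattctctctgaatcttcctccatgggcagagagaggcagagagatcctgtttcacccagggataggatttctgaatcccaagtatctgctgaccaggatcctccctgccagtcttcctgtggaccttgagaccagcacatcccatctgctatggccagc
Kcnf1, a silent subunit gene, had a peak near its start in 2 libraries, given with the gene ends. No peak overlapped the Kcnh1 or Kcna10 window in any full list. The median GC content was 64.7% for the member windows and 52.7% for all windows. A match is a run of letters and not evidence of binding.

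In the equal-length lists, members held 986 peaks over the 8 libraries. The sgRosa libraries 1 to 4 had 124, 141, 111 and 130 member peaks, and the sgNr2f2 libraries 1 to 4 had 121, 145, 109 and 105. The sgRosa mean was 126.5 ± 12.5 and the sgNr2f2 mean 120 ± 18 (SD, n = 4). The difference of −6.5 was smaller than either SD, and the groups overlapped throughout. The difference turned to 7.0 in lists of the strongest 26932 peaks. In the full lists, members held 1433 peaks, or 23.2 ± 2.49 (SD, n = 4) per 10000 listed peaks in sgRosa and 20.8 ± 1.42 (SD, n = 4) in sgNr2f2.

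Every member had at least 1 peak, and 19 to 28 of the 35 were detected in a library. Peaks followed gene length: the 11 members of at least 100 kb made up 83.7% of the window length and held 799 of the 986 peaks (81.0%). These same 11 of 35 had a peak in all 8 libraries, and no shorter member did. Over all protein-coding genes, most of them shorter than 100 kb, the share was 10.4%. For the 2415 other genes of at least 100 kb it was not measured.

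**Figure D1:**
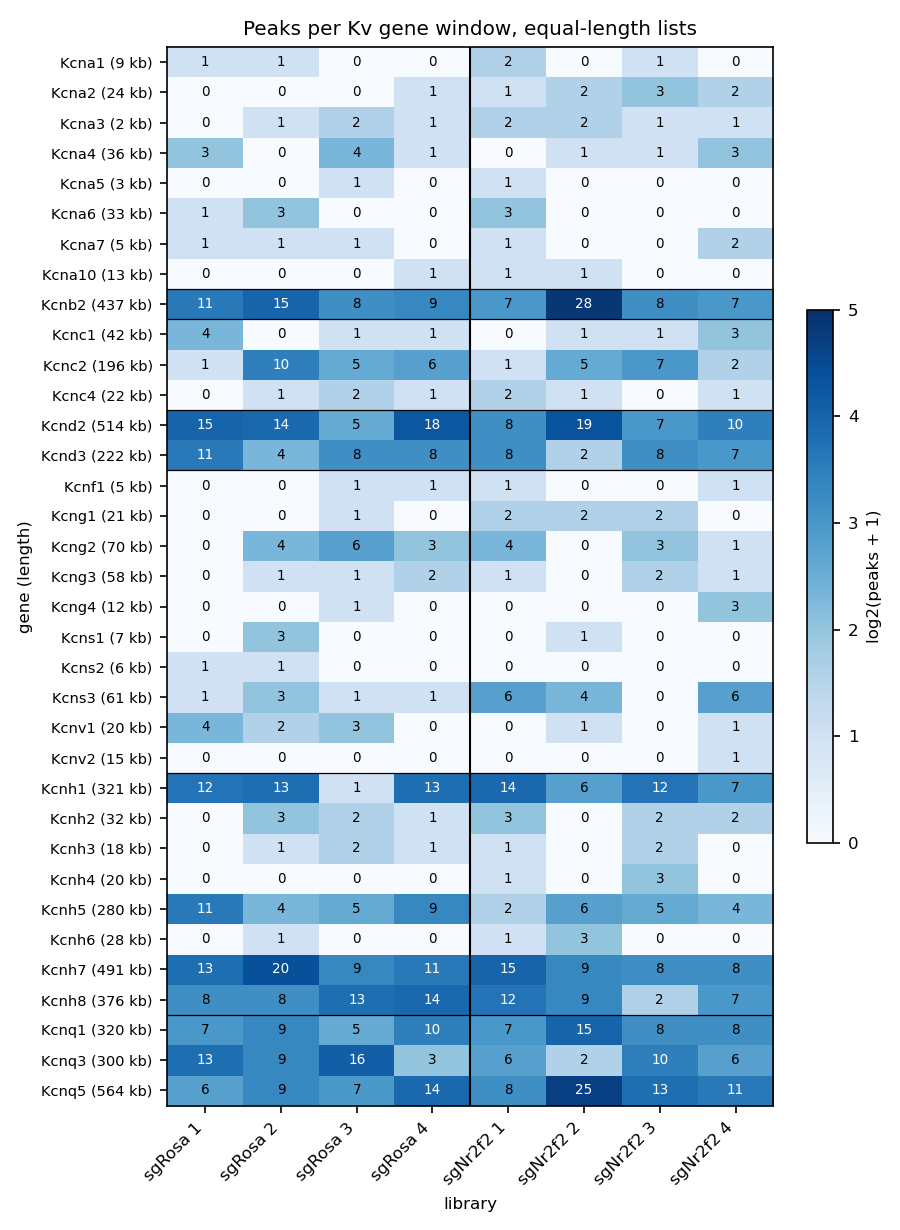
Peaks counted over each Kv gene and 5 kb on each side (rows, by subfamily) in each library (columns, 4 sgRosa then 4 sgNr2f2), from lists of 53864 peaks. The long genes, among them Kcnb2, Kcnd2, Kcnh7 and Kcnq5, hold most peaks, and the highest single value is 28 at Kcnb2 in sgNr2f2 2.

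Among delayed rectifiers of the soma, Kcnb2 (chr1:15286925-15723751), which encodes a Kv2 subunit, had 11, 15, 8 and 9 peaks in sgRosa and 7, 28, 8 and 7 in sgNr2f2. The 28 peaks of sgNr2f2 2 stood above the other 7 libraries, so the sgNr2f2 mean of 12.5 ± 10.3 (SD, n = 4) against 10.75 ± 3.10 rests on that library.

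The Kv4 genes, which carry the A-type current, were the next. Kcnd2 (chr6:21215346-21729805) had the most peaks of any member, 96 in all, with 15, 14, 5 and 18 in sgRosa and 8, 19, 7 and 10 in sgNr2f2. Both groups covered nearly the same range. Kcnd3 (chr3:105451890-105674002) had 11, 4, 8 and 8 against 8, 2, 8 and 7 peaks. Library sgNr2f2 2, the highest at Kcnb2 and Kcnd2, was the lowest here, as it was at Kcnq3 with 2.

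The Kcnh family supplied 4 of the 10 members with the most peaks. Kcnh7, an ERG channel gene (chr2:62693410-63184287), had 13, 20, 9 and 11 peaks in sgRosa and 15, 9, 8 and 8 in sgNr2f2. Kcnh1, an EAG channel gene (chr1:192189144-192510159), had 12, 13, 1 and 13 against 14, 6, 12 and 7. The single peak of sgRosa 3 was far below the rest, and both means were 9.75. Kcnh8, an ELK channel gene (chr17:52602709-52979194), had 8, 8, 13 and 14 against 12, 9, 2 and 7 peaks. Kcnh5, a second EAG channel gene (chr12:74897217-75177332), had 11, 4, 5 and 9 against 2, 6, 5 and 4 peaks. The 2 groups overlapped at each of these 4 genes.

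Of the Kv7 genes, Kcnq5 and Kcnq3 encode M-current subunits and Kcnq1 a subunit best known from heart and epithelia. Kcnq5 (chr1:21398399-21962650), the longest member, had 6, 9, 7 and 14 peaks in sgRosa and 8, 25, 13 and 11 in sgNr2f2. Kcnq3 (chr15:65986374-66286636) had 13, 9, 16 and 3 against 6, 2, 10 and 6. The means moved in opposite directions, from 9 ± 3.56 to 14.25 ± 7.46 at Kcnq5 and from 10.25 ± 5.62 to 6 ± 3.27 at Kcnq3 (SD, n = 4), with overlap at both. The Kcnq5 difference rests largely on the 25 peaks of sgNr2f2 2: on the log2 scale of the limma fit it was 0.58, and 0.28 without that library. Kcnq1 (chr7:143106877-143427050) had 7, 9, 5 and 10 against 7, 15, 8 and 8 peaks.

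The shorter genes had few peaks in any library. Kcna2, a Kv1 gene of axons (chr3:107090883-107115005), had 0, 0, 0 and 1 in sgRosa and 1, 2, 3 and 2 in sgNr2f2. It was detected in all 4 sgNr2f2 libraries and 1 sgRosa library, and the groups met at 1 peak. Kcna2 was the only one of 35 members detected in 4 sgNr2f2 and at most 1 sgRosa libraries, where 1.68% of all genes did so, and no member showed the opposite pattern, where 0.823% did. Kcna3 (chr3:107036162-107038129), a Kv1 gene also known from T lymphocytes, had 0, 1, 2 and 1 against 2, 2, 1 and 1 peaks. Its neighbours on chromosome 3 include Kcna2 and Kcna10, while Kcna1, Kcna5 and Kcna6 lie together on chromosome 6.

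The silent subunit genes Kcns3 and Kcnv1 differed in opposite directions. Kcns3 (chr12:11090202-11151168) had 1, 3, 1 and 1 peaks in sgRosa and 6, 4, 0 and 6 in sgNr2f2. Kcnv1 (chr15:45096086-45115912) had 4, 2, 3 and 0 against 0, 1, 0 and 1. In each case the groups overlapped through 1 library at 0.

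Kcng2, a silent subunit gene (chr18:80294544-80364254), had 0, 4, 6 and 3 against 4, 0, 3 and 1 peaks. Kcnc2, a Kv3 gene of fast-spiking neurons (chr10:112269898-112466304), had 1, 10, 5 and 6 against 1, 5, 7 and 2. Kcnh4, an ELK channel gene (chr11:100740378-100760115), had none in the sgRosa libraries and 1, 0, 3 and 0 in sgNr2f2. These 3 are given because an end peak with a q under 0.05 was found at each, and none separated the groups. The remaining 18 members had 1 to 13 peaks each over the 8 libraries.

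Peak numbers per gene were compared by limma on log2(peaks + 0.5) over all 8072 protein-coding genes with at least 8 peaks in total. This tested 21 of the 35 members, and 14 had fewer peaks. None of the 21 was called at a Benjamini-Hochberg adjusted p under 0.05 in either direction, where 0.0% of all genes were called higher and 0.0% lower. At an unadjusted p under 0.05, Kcna2 was the 1 member higher in sgNr2f2, where 4.32% of all genes were, and 0 members were lower, where 1.87% were. The exact permutation test over the 70 assignments of libraries gave 0 of 21 members at p under 0.05, beside 1.28% of genes higher and 0.508% lower. Its smallest possible p is 0.0286, and it called no gene after adjustment. With no overlap between the groups there were 0 of 35 members, against 0.801% of the 19217 genes with a peak higher in sgNr2f2 and 0.354% lower.

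Of the 21 tested members, 7 had a higher fitted mean in sgNr2f2, where 58.1% of all tested genes did, 12 a lower one, where 39.5% did, and 2 were equal. Their median log2 difference was −0.09, beside 0.18 for all tested genes. The largest positive limma estimate was at Kcna2, 1.86 (SE 0.84, adjusted p = 0.753). Kcns3 had 0.75 (SE 0.74, adjusted p = 0.913 by limma), Kcnq5 0.58 (SE 0.45, adjusted p = 0.855) and Kcna3 0.58 (SE 0.79, adjusted p = 0.955). On the negative side limma gave Kcnv1 −1.28 (SE 0.84, adjusted p = 0.837), Kcnh5 −0.69 (SE 0.56, adjusted p = 0.870), Kcnq3 −0.68 (SE 0.53, adjusted p = 0.852) and Kcnh8 −0.67 (SE 0.49, adjusted p = 0.849). These log2 differences understate change at genes with few peaks. The same test was run on simulated lists with known changes. Among genes with a mean of at least 5 peaks it called 9 of 9 changed 4-fold and 7 of 16 changed 2-fold. Over all genes it called 18 of 100 and 8 of 82. The simulated numbers were Poisson draws, which hold no spread between libraries beyond random counting. Real numbers spread more at some members, such as Kcnb2 with 7, 28, 8 and 7 in sgNr2f2. Real changes may therefore be called less often.

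**Figure D2:**
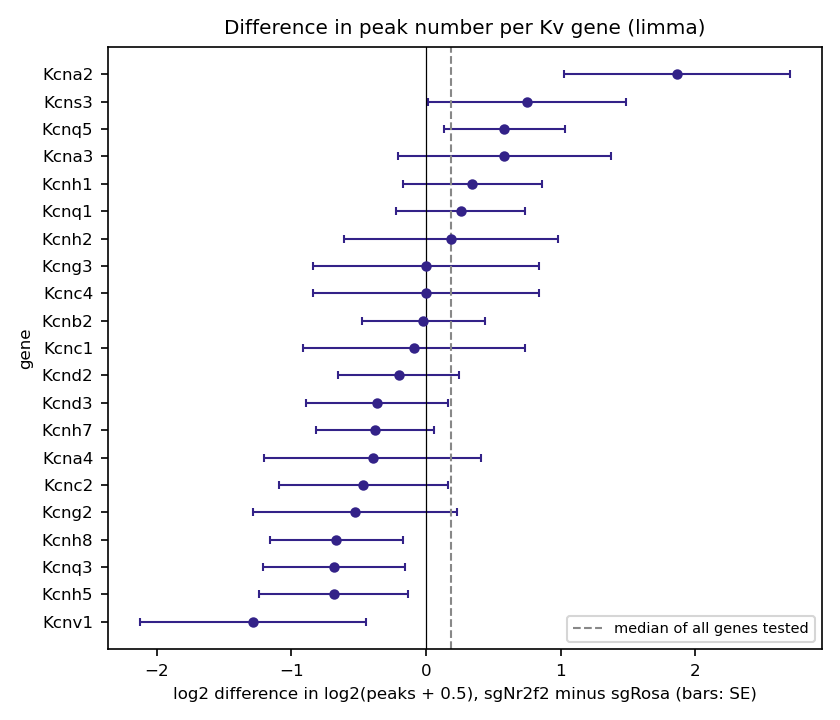
Log2 difference in peaks per gene, sgNr2f2 minus sgRosa, with its standard error from limma, for the 21 members with at least 8 peaks. Estimates run from −1.28 at Kcnv1 to 1.86 at Kcna2, and no adjusted p is below 0.753.

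The products of the 15 auxiliary subunit genes bind Kv channels and change their gating or traffic. Of these genes 8 were tested, 4 higher and 4 lower, none called by limma (smallest adjusted p 0.826), with a median log2 difference of −0.01. The largest estimates were −1.05 at Kcnip3 and 0.79 at Kcnip1, both of which encode Kv4-binding calcium sensors, −0.28 at Kcnab1, a Kv1 beta subunit gene, and −0.27 at Dpp10, a Kv4 partner. Among genes too sparse to test, Amigo1 had 1 peak in each sgRosa library and none in sgNr2f2, and Kcne1 none in sgRosa and 1, 1, 1 and 3 in sgNr2f2. The groups thus did not overlap at 1 of 15 genes in each direction, beside 0.801% of all genes higher in sgNr2f2 and 0.354% lower. These 2 were named after their values were seen. Of 34 genes for other potassium channels, 25 were tested, 16 higher and 7 lower, none called by limma (smallest adjusted p 0.788), with a median of 0.25. The largest were 4 two-pore channel genes, Kcnk1 at 1.58, Kcnk6 at 1.49, Kcnk3 at 1.16 and Kcnk10 at 1.14.

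Peak density allows genes of different length to be compared. Over the 8 libraries the member windows had 25.0 ± 2.99 peaks per Mb (SD, n = 8), and the 1 Mb on each side of them, without the member windows, 23.6 ± 1.82. Their ratio was 1.14, 1.24, 0.902 and 1.24 in sgRosa and 1.02, 1.30, 0.821 and 0.877 in sgNr2f2. It lay above 1 in 5 libraries and below 1 in 3, with means of 1.13 ± 0.16 and 1.00 ± 0.216 (SD, n = 4), a difference within the spread. A second ratio divided the pooled window density by the mean flank density of the single genes. Long genes thus weighed more in its windows than in its flanks. It was 1.03 ± 0.182 (SD, n = 8) for the members and 1.07 ± 0.0293 for all protein-coding genes. It was 1.05 ± 0.19 for the 11 members of at least 100 kb and 1.04 ± 0.0222 for the 2415 other genes of that length. For genes under 100 kb it was 1.15 ± 0.26 for members and 1.09 ± 0.0246 for others. A gene-wise median ratio over the libraries was 1.13 for the members and 1.01 for all protein-coding genes, and its spread was not measured. In the pooled ratios, no enrichment of peaks in the Kv genes over their surroundings was detectable beyond the spread between libraries.

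**Figure D3:**
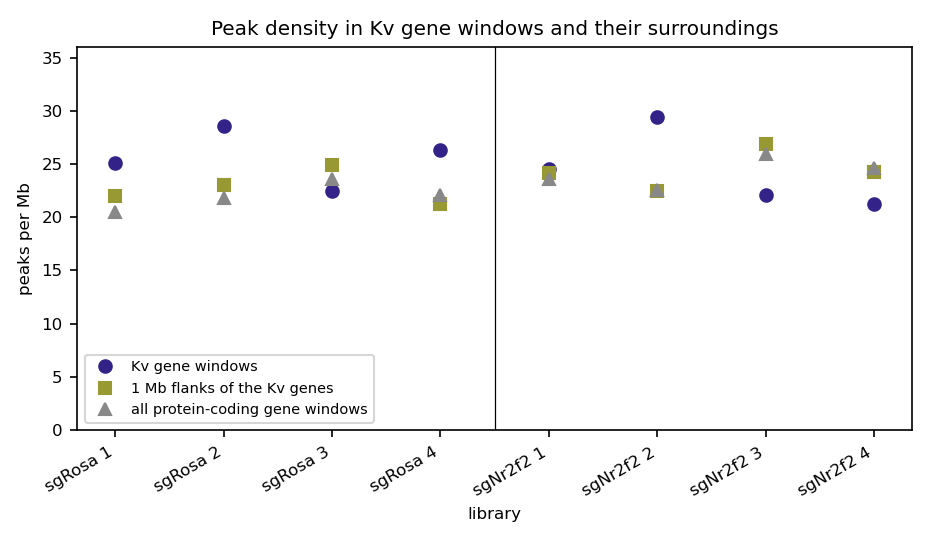
Peaks per Mb in each library (x axis) in the Kv gene windows (circles), in the 1 Mb flanks of the Kv genes (squares) and in the windows of all protein-coding genes (triangles). The windows lie above the flanks in 5 libraries and below them in sgRosa 3, sgNr2f2 3 and sgNr2f2 4.

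Single members ranged more widely around their flanks, in windows that held few peaks. Kcna3 had the highest ratio, 3.25, with 104 ± 59.1 peaks per Mb (SD, n = 8) against 32.1 ± 5.3, and was above its flanks in 7 of 8 libraries. Its window is the shortest, and this density comes from 10 peaks. The next were Kcnv1 at 2.24, Kcns3 at 1.67, Kcna7 at 1.59 and Kcna4 at 1.52. The lowest were Kcnv2 at 0.239, from 1 peak, Kcna10 at 0.537, Kcng3 at 0.636 and Kcna5 at 0.729.

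Subfamilies ranked from Kv1 to Kv7 with little separation. The 8 Kv1 genes had 33.5 ± 10.2 peaks per Mb (SD, n = 8), the 10 silent subunit genes 28.0 ± 10.1 and Kcnb2 26.0 ± 16. Next came the Kv4 genes at 25.1 ± 6.48, the Kcnh genes at 24.2 ± 5.49, the Kv3 genes at 24.1 ± 8.22 and the Kv7 genes at 23.4 ± 5.09. Every pair of neighbours in this order differed by less than 1 SD of either.

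Between the groups, the Kv1 windows had 29.2 ± 7.96 peaks per Mb in sgRosa and 37.8 ± 11.5 in sgNr2f2 (SD, n = 4), a difference of 8.53 that turned to −3.36 in the full lists scaled to equal totals. The Kv3 windows had 27.5 ± 8.42 and 20.6 ± 7.43, the Kcnh windows 26.6 ± 5.02 and 21.9 ± 5.50, and the Kv4 windows 27.4 ± 8.45 and 22.8 ± 3.48. These 3 subfamilies had lower means in sgNr2f2, by less than the larger of their SDs. Peaks of q under 0.05 alone were also used, scaled in each library to the length of the equal-length lists. With these the difference turned to 11.4 for Kv3 and 6.11 for Kv4, and was −12.3 for Kcnh. The Kv3 value rests on 5 peaks at Kcnc2 and 1 at Kcnc4. The Kv2 difference of 3.92 became −7.65 and the Kv7 difference of 2.26 became −1.10 without sgNr2f2 2. The silent subunit difference of 1.33 became −2.44 without sgRosa 1 and −1.55 without sgRosa 4, sgNr2f2 1 or sgNr2f2 4. No subfamily differed between the groups beyond the spread of its libraries.

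**Figure D4:**
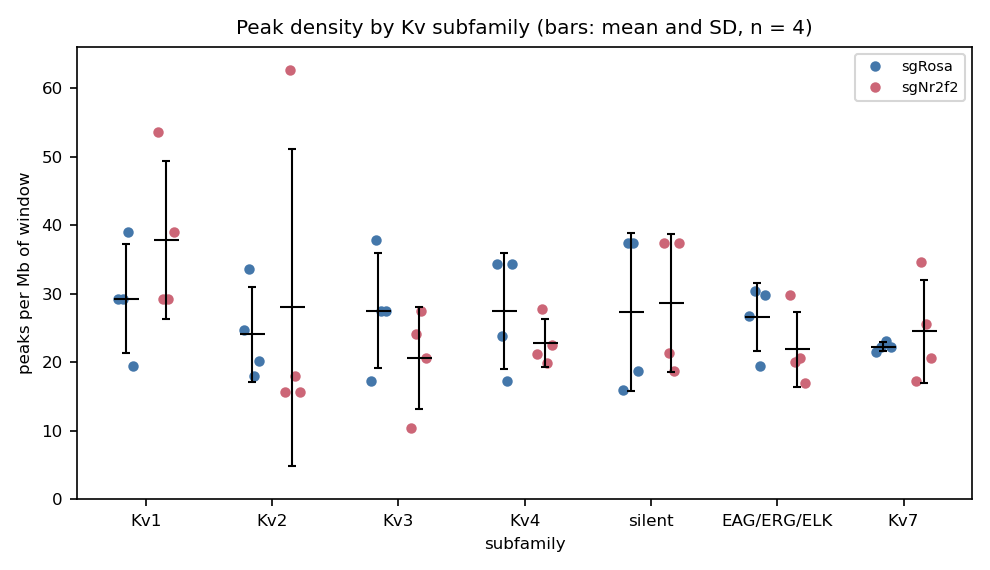
Peaks per Mb of window for each Kv subfamily (x axis), 1 point per library, in sgRosa and sgNr2f2. The groups overlap in every subfamily, and the Kv2 point at 62.7 is library sgNr2f2 2.

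Peaks at gene ends were far fewer than peaks in gene bodies, and their numbers were higher in sgNr2f2 in the equal-length lists. Less than 1 kb from either end, members had 3, 3, 3 and 1 peaks in sgRosa and 7, 7, 7 and 3 in sgNr2f2. The means were 2.5 ± 1.0 and 6.0 ± 2.0 (SD, n = 4), and the groups met at 3 peaks. In the full lists scaled to equal totals the difference fell from 3.5 to 0.876 peaks, and the unscaled full lists had 19 end peaks in sgRosa and 26 in sgNr2f2. In gene bodies the counts were 115, 130, 98 and 123 against 109, 129, 98 and 93, with overlap.

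Relative to body density, end density was 0.841, 0.744, 0.987 and 0.262 in sgRosa and 2.07, 1.75, 2.30 and 1.04 in sgNr2f2. The means were 0.709 ± 0.314 and 1.79 ± 0.55 (SD, n = 4), and the groups did not overlap in these lists. In the full lists they overlapped, with 1.00, 1.26, 1.12 and 0.523 in sgRosa and 1.52, 1.11, 1.93 and 1.04 in sgNr2f2. They also overlapped within the members of at least 100 kb, where sgRosa 3 had 1.14 and sgNr2f2 2 had 0, and within the shorter members, where sgRosa 1 had 1.19 and sgNr2f2 4 had 0.536. Over all protein-coding genes the same ratio was 1.22 ± 0.148 in sgRosa and 1.12 ± 0.109 in sgNr2f2. Over the 34 genes of other potassium channels it was 1.16 ± 0.923 and 1.59 ± 0.694, from 1, 5, 5 and 2 end peaks against 8, 6, 5 and 3, so the higher sgNr2f2 mean was not shown to be particular to the Kv genes. In the scaled full lists the difference for members fell from 1.08 to 0.424. These ratios rest on 34 peaks in all, and a sum over chosen genes was given no test. Summed marker peaks of astrocytes were 2 to 7 in sgRosa and 7 to 17 in sgNr2f2, so the groups met at 7. A window peak was found at 5 of 5 of these genes, with no end peak at Aqp4, Slc1a3 or Gjb6. Neuron markers had 40 to 59 and 35 to 47 over 11 of 11 genes. The groups also overlapped for oligodendrocytes (1 to 9 and 4 to 10), microglia (0 to 7 and 1 to 7) and vascular cells (4 to 12 and 6 to 8). These sums cover sets of genes that differ in number and length. In mean peaks per Mb the markers had 27.6 for neurons, 34.6 for astrocytes, 22.5 for oligodendrocytes, 28.2 for microglia and 24.4 for vascular cells. The neuron markers thus did not stand out. The part of these cell types in the member values, Kcna2 included, was not tested.

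**Figure D5:**
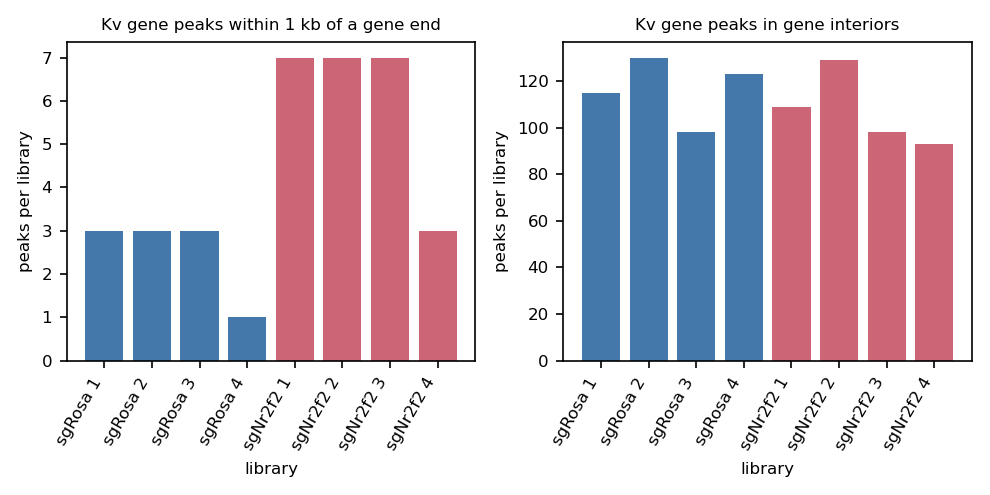
Member peaks within 1 kb of a gene end (left) and in gene interiors more than 1 kb from both ends (right), 1 bar per library, sgRosa in blue and sgNr2f2 in red. End peaks are 1 to 3 in sgRosa and 3 to 7 in sgNr2f2, while the body counts overlap.

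The 34 end peaks lay at 21 members, 10 at 8 genes in sgRosa and 24 at 18 genes in sgNr2f2. Where the promoter table gave a strand, 3 sgRosa and 11 sgNr2f2 peaks lay at the start of a gene and 2 and 6 at the 3′ end, and 5 and 7 lay at ends of genes without a strand. The 11 start peaks of sgNr2f2 were at 11 different genes. In the unscaled full lists, 5 sgRosa and 11 sgNr2f2 peaks lay at starts and 6 and 7 at 3′ ends. No such split was made over all protein-coding genes. The start here is the outer boundary of the gene, so a start peak need not lie at a promoter window. At Kcnh2 the start peak was at chr5:24351951-24352100, and the promoter window, chr5:24329542-24329841, lay inside the gene. No member had an end peak in 4 or more libraries. Kcng1, a silent subunit gene, had one in 3 sgNr2f2 libraries and no sgRosa library. Kcnv1 and Kcnh2 each had an end peak in 1 sgRosa and 2 sgNr2f2 libraries. The end peaks of Kcng1 and of Kcnv1 lay at both ends of the gene without overlap, and none had a q under 0.05. The share of all genes with such counts was not measured. Kcng1 and Kcnh2 were named after their values were seen.

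Of these end peaks 4 had a q under 0.05, each in 1 library. At Kcnd3 in sgNr2f2 1 a peak at chr3:105451337-105451573 lay 448 bp from the gene's start, with a fold of 3.19 and a −log10 q of 1.40. At Kcnc2 in sgNr2f2 3 a peak at chr10:112269190-112269390 lay 619 bp from the start (−log10 q 1.31). At Kcnh4 in sgNr2f2 3 a peak at chr11:100739666-100739821 lay 639 bp from the 3′ end (−log10 q 1.66). The only one in sgRosa was at Kcng2 in sgRosa 3, at chr18:80364000-80364234, 129 bp from an end (−log10 q 1.56). These 4 positions were each seen once, so none recurred in a second library.

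Recurrence was rare along the whole of the genes. Overlapping peaks of the 8 lists merged into 940 regions in member windows, of which 898 came from 1 library and 42 (4.47%) from 2 or more. Genome-wide, 20795 of 405567 regions (5.13%) came from 2 or more libraries, so the Kv genes were near the background. Of the 42 regions, 8 were found in sgRosa only, 5 in sgNr2f2 only and 29 in both groups. They lay in 19 members, 8 of them in Kcnq5 and 4 each in Kcnq3 and Kcnb2. Lists of 26932 peaks left 12 such regions, and leaving out sgRosa 2 left 28.

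In all, 4 regions came from 3 libraries and none from more (0.426% of member regions, against 0.473% genome-wide). Kcnq5 held 2 of them, at chr1:21714953-21715133 (sgRosa 3, sgRosa 4 and sgNr2f2 2, −log10 p 4.52 to 4.96) and at chr1:21540505-21540908 (sgRosa 1, sgNr2f2 1 and sgNr2f2 2, −log10 p 2.86 to 4.09). Kcnh5 held 1 at chr12:75034906-75035235 (sgRosa 1, sgNr2f2 3 and sgNr2f2 4, −log10 p 2.84 to 5.05). Kcnq3 held 1 at chr15:66107266-66107778 (sgRosa 1, sgRosa 3 and sgNr2f2 3, −log10 p 3.90 to 4.29). Each contained libraries of both groups, and all 4 lay inside the gene, over 100 kb from either end. Only 2 of the 42 regions lay less than 1 kb from a gene end. These were at Kcnh2 (chr5:24319150-24319358), an ERG channel gene, and at Kcnf1 (chr12:17176458-17176749), just inside the gene from the promoter printed above, and both were named after their values were seen.

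The median fold of member peaks was 2.64 to 3.03 per library, against 2.65 to 3.03 for all peaks. Their median −log10 p was equal to that of all peaks in 5 libraries, higher in 2 and lower in 1. Members held 124 peaks with a q under 0.05, in 23 genes, 113 of them inside the gene. By library there were 16, 10, 12 and 19 in sgRosa and 18, 14, 27 and 8 in sgNr2f2. As a share of the full lists these were 5.88% to 20.8% of member peaks, beside 4.81% to 18.6% of all peaks. The member share was lower in sgRosa 1, at 11.5% against 18.6%, and in sgNr2f2 4, at 7.62% against 13.2%. Kcnb2 had 18 such peaks and Kcnd2 17, followed by Kcnd3 and Kcnq1 with 11 each, Kcnq5 with 10 and Kcnh7 with 9. The strongest lay in Kcnq1 in sgRosa 4, at chr7:143363695-143363894, with a fold of 4.54 and a −log10 p of 7.61, and ranked 601 in its list.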

How the data were processed

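ATAC-seq peak lists of 8 libraries, 4 sgRosa and 4 sgNr2f2, were analysed, with groups and replicate numbers from the sample titles. The series gives 4 mice a group and does not tie each library to an animal, so p-values measure the spread between these libraries. Per the submitters' processing notes, peaks are in mm10 and the tools named are MACS2 2.2.9.1, HOMER 4.10, DiffBind 3.10.0, Picard, MultiQC 1.11, fastp 0.23.2 and FastQC 0.11.9. The aligner, the duplicate filter, the Tn5 shift and the calling threshold are not given in the sources used here. Each library had its own deposited list, which gives for each peak the authors' score, a fold enrichment (a ratio to background), a −log10 p and a −log10 q.

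Intervals with several summits were collapsed to the highest −log10 p, chromosomes 1 to 19 and X were kept, and each list was cut to its strongest 53864 peaks. These lists remove differences in list length and not in depth, which is unknown. Genes came from RefSeq (GRCm38.p6), whose gene table holds no strand. Strand and the promoter sequences came from the RefSeq promoter table, which had an entry for 25 members.

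Members and lists were chosen with earlier results of these data known. The text names the 10 members with the most peaks, up to 4 per direction with the largest limma difference, members detected in 4 libraries against at most 1, and members with an end peak of q under 0.05 or in 4 libraries or a region in 3 libraries. It also names up to 4 genes of each of the 2 other lists. The fit used limma 3.58.1 in R 4.3.3 with a trend, two-sided, with Benjamini-Hochberg adjustment over all genes tested, a pseudocount of 0.5 and at least 8 peaks per gene. It was tested on simulated Poisson numbers. Alternatives covered list length, full lists scaled to equal totals, q under 0.05 only, ranking by fold, windows of 0 and 10 kb, gene ends of 2 kb, flanks of 0.2 Mb, an overlap of 75 bp, the pseudocount, the filter, leaving out each library, and the replicate number as a block. Python 3.11.15, numpy 2.4.6, pandas 2.3.3 and matplotlib 3.10.9 were used.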

Additional observations from a re-analysis of the deposited data

Results flagged for a closer look

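In each group of 4 libraries the highest and the lowest were compared with the other 3, and a library was noted where its gap took up nearly the whole range. This noted 12 of 68 groups examined, where chance gives about 1 in 20 for continuous values, and small whole numbers tie often. Library sgNr2f2 2 stood out 4 times: 28 peaks at Kcnb2, which is also the Kv2 density of 62.7 peaks per Mb, 15 peaks at Kcnq1 and, on the low side, 2 at Kcnd3. At gene ends the lowest libraries were sgRosa 4, with 1 peak or 7.14 per Mb, and sgNr2f2 4, with 3 peaks or 21.4 per Mb. The other 4 were 1 peak at Kcnh1 in sgRosa 3, 1 at Kcna2 in sgRosa 4, 3 at Kcns3 in sgRosa 2 and 15 at Kcnh7 in sgNr2f2 1.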

How the results depend on the processing

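Of 472 results under the alternatives, 458 kept their direction or call, or moved by less than the spread between libraries. The other 14 moved by more. Among the 458 are those of the exact permutation test per gene, which reuse the main log2 differences. With a smallest possible p of 0.0286, that test could hardly call a gene after adjustment, so its results do not measure robustness. Lists of 26932 peaks left 12 recurrent regions in place of 42. Full lists scaled to equal totals gave a difference between the groups in gene-end peaks of 0.876, in the end to body ratio of 0.424 and in Kv1 density of −3.36, and gene ends of 2 kb gave an end-peak difference of 5.5. Peaks with a q under 0.05 alone were scaled, in each library, to the length of the equal-length lists. They gave 22.7 scaled peaks per Mb for Kv1, 43.6 for Kv2 and 17.9 for Kv7. These are not observed densities, and few peaks lay behind them, such as 18 in all at Kcnb2. With these peaks the differences in density, in scaled peaks per Mb, were −18.8 for Kv2, 11.4 for Kv3 and 6.11 for Kv4. They were −13.1 for the silent subunits, −12.3 for Kcnh and 12 for Kv7. Those of Kv2, Kv3, Kv4 and the silent subunits thus turned in sign. The cause was not tested. Leaving out 1 library at a time, the end-peak difference ran from 3.0 to 4.5 and the difference in member peaks from −14.8 to −1.5.

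Limma called no gene under any alternative run, and its smallest adjusted p over all genes ran from 0.206, without sgRosa 3, to 0.901, without sgNr2f2 4. The exact permutation test per gene gave 1.0. With the replicate number as a block, limma called 0 genes, 490 had an unadjusted p under 0.05 in place of 500, and Kcna2 had a log2 difference of 1.86 (adjusted p = 0.795). Deviations of same-numbered libraries correlated at 0.00831, 0.000717, 0.00177 and −0.00474. Those of differently numbered libraries correlated at −0.0559 to 0.0411. With few peaks per gene, such values cannot decide whether same-numbered libraries shared a batch. Read depth is unknown, and few peaks per gene limit the test. In simulated lists, 4-fold changes were called at 18 of 100 genes over all genes and at 9 of 9 with a mean of at least 5 peaks. Those lists held Poisson spread only, which is less than the real libraries showed at some members, so the shares may be too high for real lists.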
